A study of Mus musculus with 2 samples.

Results

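Group 2 innate lymphoid cells (ILC2s) that held transcripts of both type 2 effector cytokines, Il5 and Il13, and no Il2 transcript were examined in single-cell RNA sequencing of mouse lung. A barcode, which stands for 1 droplet and usually 1 cell, was kept when it had at least 500 detected genes and at most 10% of its unique molecular identifiers (UMIs, each counting 1 captured transcript) from mitochondrial genes. Kept barcodes with at least 1 Il5 UMI, at least 1 Il13 UMI and no Il2 UMI were called double-positive ILC2s, and there were 1820 of them among 15481. The WT library gave 1235 of 8394 kept barcodes and the Pac1-/- library 585 of 7087. The cells were thus chosen by their UMI counts of these 3 genes, so Il5, Il13 and Il2 are described below and not tested.

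The series held 1 library per genotype, made from sorted lung ILC2s of mice aged 6 to 8 weeks on the C57BL/6J background. WT mice were Pac1+/+, and Pac1-/- mice lacked Pac1, the phosphatase encoded by Dusp2. Each library pooled 4 to 5 mice, and cells were sorted as live lineage-negative CD90.2+ ST2+ Sca-1+ cells, with no treatment named for these samples. Since each genotype was 1 library, genotype and library cannot be told apart, no p-value was computed across genes, and every interval below is a 95% interval that covers counting error only.

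ILC2s are tissue-resident lymphocytes that carry no antigen receptor and respond to alarmins such as IL-33 and to neuropeptides. IL-5 recruits and sustains eosinophils, whereas IL-13 acts on epithelium and smooth muscle and drives mucus production. The genes for both lie in the type 2 cytokine locus, which GATA3 keeps accessible, and NFAT, AP-1 and NF-kB factors switch them on in stimulated cells. Calca encodes the neuropeptide CGRP, which ILC2s themselves can make and which signals through a receptor of Calcrl and Ramp1 that raises cAMP.

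The promoters of the 2 cytokines that define these cells, and that of Calca, which was among the genes with the largest ratios in them, are shown because GATA3 is the lineage factor and NFAT the calcium-dependent factor of this locus. Il5 (chr11:53720794-53725106, plus strand) and Il13 (chr11:53631324-53634702, minus strand) have start sites 86092 bases apart, and Calca lies at chr7:114631478-114636357 on the minus strand. The 250 bases before each start site, from RefSeq on GRCm38.p6, are written 5′ to 3′ on the strand of the gene, at chr11:53720544-53720793, chr11:53634703-53634952 and chr7:114636358-114636607. Capitals mark GATA words, which are AGATAA or AGATAG or TGATAA or TGATAG on either strand, and the NFAT core GGAAA or its reverse complement TTTCC.
Il5: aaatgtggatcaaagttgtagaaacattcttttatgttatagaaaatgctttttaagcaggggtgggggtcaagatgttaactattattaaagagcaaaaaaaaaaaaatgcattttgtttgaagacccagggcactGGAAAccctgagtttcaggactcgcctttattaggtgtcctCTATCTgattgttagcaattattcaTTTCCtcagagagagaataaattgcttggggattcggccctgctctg
Il13: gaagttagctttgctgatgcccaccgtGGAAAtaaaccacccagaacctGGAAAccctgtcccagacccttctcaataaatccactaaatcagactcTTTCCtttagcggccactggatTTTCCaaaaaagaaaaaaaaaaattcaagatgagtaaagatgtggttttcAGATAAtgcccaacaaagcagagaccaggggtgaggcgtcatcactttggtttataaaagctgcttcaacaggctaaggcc
Calca: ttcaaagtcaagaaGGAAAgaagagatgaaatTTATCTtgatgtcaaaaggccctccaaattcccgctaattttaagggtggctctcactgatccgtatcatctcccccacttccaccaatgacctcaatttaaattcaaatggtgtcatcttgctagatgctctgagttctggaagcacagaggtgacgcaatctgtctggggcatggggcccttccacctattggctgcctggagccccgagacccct
Each promoter held 1 GATA word, CTATCT 72 bases before the start of Il5, AGATAA 81 bases before that of Il13 and TTATCT 218 bases before that of Calca. The NFAT core was found 2 times at Il5, 4 times at Il13 and 1 time at Calca. Of 32851 mouse promoter windows of this length, 26.5% held a GATA word and 55.6% the NFAT core. The AP-1 word TGANTCA, held by 6.75% of windows, was in none of the 3, and the CRE core TGACG or CGTCA, held by 17.8%, was in those of Il13 and Calca. These are matches of letters, and no binding was measured.

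Double-positive ILC2s made up 14.7% (13.96 to 15.5, exact binomial interval) of kept WT barcodes and 8.25% (7.62 to 8.92) of kept Pac1-/- barcodes. Detection of a transcript depends on how many UMIs a barcode has, and the median was 6939 in WT and 8115 in Pac1-/- double-positive cells against 3436 and 4673 in cells with none of the 3 cytokines. The share was therefore read within depth bins. From barcodes under 2000 UMIs to those with 16000 or more, the WT share was 4.81%, 7.57%, 17.1%, 27.5% and 26.5%. In the Pac1-/- library it was 3.08%, 2.59%, 7.20%, 13.7% and 14.4% in the same bins. The Pac1-/- share was below the WT share in all 5 bins, with overlapping intervals in the shallowest bin. Barcodes with Il2, which the rule leaves out, were 19.9% of kept WT and 25.5% of kept Pac1-/- barcodes. Among them 604 WT and 416 Pac1-/- barcodes held all 3 cytokines, with medians of 15406 and 20963.5 UMIs. The shares in the bins therefore do not count all barcodes with both Il5 and Il13. After every barcode was thinned to 1500 UMIs, leaving out 760 shallower WT and 523 shallower Pac1-/- barcodes, the share was 6.59% (6.04 to 7.17) in WT and 3.72% (3.27 to 4.20) in Pac1-/-. The same barcodes before thinning gave 15.7% and 8.65%. Of the barcodes double-positive after thinning, 411 of 503 in WT and 198 of 244 in Pac1-/- were so at full depth. The others held Il2 UMIs that thinning removed.

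**Figure D1:**
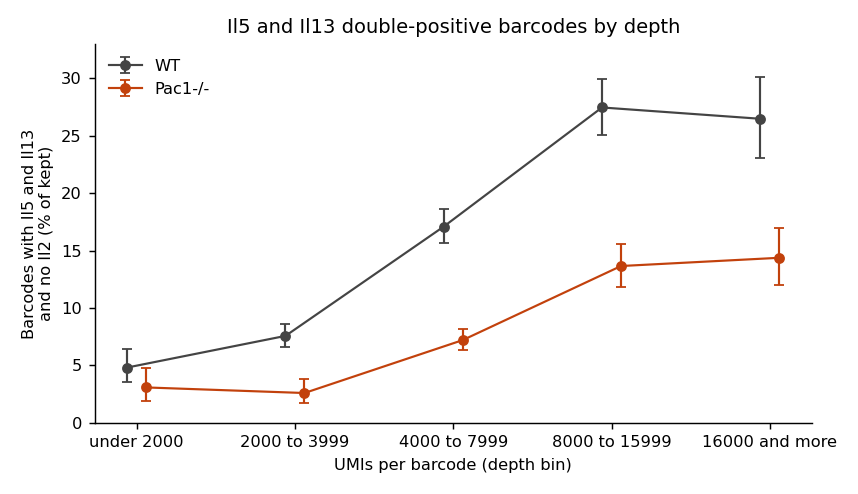
Share of kept barcodes that were double-positive (y axis, %) in 5 bins of UMIs per barcode (x axis), for the WT and the Pac1-/- library, with exact 95% binomial intervals as bars. WT lies above Pac1-/- in each bin, and both shares are higher in deep than in shallow barcodes.

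At equal depth, each cytokine was detected more often in barcodes that held the other. Among barcodes with no Il2 UMI left after thinning, Il5 was detected in 51.2% of WT barcodes with Il13 and in 30.3% of those without it. The Pac1-/- values were 44.1% and 17.0%. Read the other way, Il13 was detected in 21.3% of Il5-positive and 10.1% of Il5-negative WT barcodes, and in 20.6% and 6.33% of Pac1-/- ones. Free RNA in droplets can also place a UMI in a cell that does not express the gene. Barcodes with at least 3 markers of B, stromal, endothelial or epithelial cells were looked at for this. ILC2s, and doublets with ILC2s, were not excluded from them. Both cytokines without Il2 were seen in 3 of 25 such WT barcodes (12%, 2.55 to 31.2, median 3654 UMIs) and in 2 of 51 Pac1-/- ones (3.92%, 0.478 to 13.5, median 4207 UMIs). Those intervals include the shares of double-positive ILC2s in all kept barcodes. So few barcodes, which may include ILC2s, cannot decide how far free RNA accounts for 1 UMI of each. That part was not tested. The amounts per cell are given next.

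With a stricter definition of at least 2 UMIs of each cytokine, 652 WT (52.8%) and 323 Pac1-/- (55.2%) double-positive cells remained. These were 7.77% of the kept WT and 4.56% of the kept Pac1-/- barcodes. Of the same barcodes with markers of other types 2 of 25 in WT (8%, 0.984 to 26.0) and 0 of 51 in Pac1-/- (exact upper limit 6.98%) met that definition. Those intervals include the stricter shares as well. For the same reasons these barcodes cannot decide the part of free RNA in them. Among the double-positive cells, 144 (11.7%) and 74 (12.6%) had exactly 1 UMI of each. The median cell held 5 Il5 UMIs in both libraries, with quartiles of 2 and 16 in WT and 2 and 19 in Pac1-/-, and maxima of 166 and 232. Il13 UMIs had a median of 2 in WT, quartiles 1 and 5 and a maximum of 66, and a median of 3 in Pac1-/-, quartiles 1 and 9 and a maximum of 90. Cytokine transcripts were thus spread unevenly among the cells. The 10% of cells with the most Il5 held 42.6% of the Il5 UMIs of WT double-positive cells and 44.2% of those in Pac1-/-. The matching shares for Il13 were 44.3% and 46.2%. More Il5 than Il13 UMIs were counted in 60.9% of WT and 54.2% of Pac1-/- cells.

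Double-positive cells also carried more of each cytokine than the cells that had only 1 of them. In CPM (UMIs of a gene per 1000000 UMIs of the pool) over cells paired within 10% of their UMI count, Il5 stood at 1417 CPM in WT double-positive cells and 979 in Il5-only cells, and at 1274 and 729 CPM in Pac1-/-. Il13 stood at 751 CPM against 521 in Il13-only cells in WT, and at 959 against 450 in Pac1-/-, where the double-positive cells of the pairs were somewhat deeper (medians of 4532.5 against 4081.5 UMIs in WT and 6527.5 against 5848 in Pac1-/-). These differences are partly set by the rule, since a cell with more transcript is more likely to be counted as positive. By the same rule every double-positive cell has both transcripts, and these cells held 37.3% of the Il5 and 56.1% of the Il13 UMIs of kept WT barcodes and 33.7% and 46.9% of those in Pac1-/-. Across all double-positive cells of a library, not paired by depth, Il5 stood at 1321 CPM in WT and 1188 in Pac1-/-, and Il13 at 527 and 607. In 577 pairs of WT and Pac1-/- double-positive cells of like depth, Il5 stood at 1259 and 1236 CPM, and Il13 at 470 and 639.

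Dusp2 (chr2:127336159-127338376, plus strand), the gene deleted in the Pac1-/- mice and a nuclear phosphatase of MAP kinases, was read first as a check of the labels. In WT double-positive cells it gave 244 UMIs in 128 of 1235 cells (10.4%), and in Pac1-/- double-positive cells it gave 1 UMI in 1 of 585. Within WT, 879 double-positive cells could be paired with cytokine-negative cells (no Il5, Il13 or Il2 UMI) within 10% of their UMI count. Dusp2 stood at 13.3 CPM (10.3 to 16.8) in those double-positive cells and at 35.2 CPM (30.1 to 41.0) in the negative ones. Relative to the median gene the log2 ratio was -1.26 (-1.69 to -0.85), the lowest of the 4892 genes compared. A Dusp2 UMI was found in 47 of 879 double-positive and 83 of 879 negative cells. Without the pairing by depth the ratio was -0.33, which is within 1.5-fold. Under the 5 other alternatives in which Dusp2 had enough UMIs it stayed past 1.5-fold, down to -1.41.

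ILC2 identity was checked with marker lists. At least 3 of 10 ILC2 markers were detected in 1230 of 1235 WT and 581 of 585 Pac1-/- double-positive cells. None of the 10 was at 0 in either library. In depth-matched pools the check was passed by 99.4% of double-positive and 98.98% of negative WT cells, and by 99.2% and 97.7% in Pac1-/-. In CPM, 6 of the 10 stood higher in double-positive cells of each library. Il7r, Il17rb and the sort markers Thy1 and Ly6a stood lower. Thy1 was at 146 against 174 in WT and 129 against 174 in Pac1-/-. Ly6a was at 93.0 against 128 and 194 against 261. At least 3 of 9 T cell markers were detected in 406 WT cells (32.9%) and 188 Pac1-/- cells (32.1%). The markers detected were mainly Trbc1, Trbc2 and Cd3g, and whether their UMIs came from ILC2s, T cells or free RNA was not tested. Cd4 gave 1 UMI and Cd8a and Cd5 none in the paired WT double-positive cells, and none of the 3 was seen in the Pac1-/- ones. In the depth-matched pools the share of cells with at least 3 T cell markers was 20.1% of double-positive and 19.5% of negative WT cells, and 25.5% and 27.97% in Pac1-/-. B cell markers reached 3 in 1 WT and 2 Pac1-/- cells, endothelial markers in 2 and 0, erythroid markers in 0 and 1, and markers of NK cells and ILC1s, ILC3s, mast cells and basophils, eosinophils, myeloid, stromal and epithelial cells in 0. The summed stromal markers stood at 1.78 CPM in double-positive and 41.3 CPM in negative WT cells, and at 0.634 and 18.3 CPM in Pac1-/-. Summed B cell markers stood at 42.5 against 94.0 CPM in WT and 49.9 against 113 in Pac1-/-. Most of this was Ighm, at 36.8 against 74.5 CPM in WT and 42.5 against 78.2 in Pac1-/-. Those of mast cells and basophils stood at 13.5 against 15.7 CPM and 18.8 against 56.1. The summed endothelial markers were among those that went the other way, at 58.6 against 28.1 CPM and 63.9 against 34.7. Nearly all of this was the single gene Pecam1, at 56.6 against 27.3 CPM in WT and 63.0 against 32.2 in Pac1-/-. In Pac1-/- the endothelial markers Cdh5, Cldn5 and Egfl7 stood lower in double-positive cells, on very few UMIs. The part of those other cells in the differences between double-positive and negative cells was not tested beyond leaving out barcodes with 3 markers of another type, which gave 385 genes past 1.5-fold higher and 171 lower in WT and 473 and 241 in Pac1-/-, read as described next.

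To describe what else these cells expressed, the pooled UMIs of double-positive and depth-matched cytokine-negative cells were compared within each library. The median cell had 4874 and 4851 UMIs in the 879 WT pairs and 7478.5 and 7440 in the 522 Pac1-/- pairs. Over all double-positive cells the median was 6939 in WT and 8115 in Pac1-/-, so the paired ones were the shallower part. Ratios are given as log2 relative to the median gene, which itself lay at -0.15 in WT and -0.18 in Pac1-/-. Among genes with at least 200 UMIs in the 2 pools together, 383 of 4892 (7.83%) were more than 1.5-fold higher and 161 (3.29%) more than 1.5-fold lower in WT. In Pac1-/- they were 539 of 5001 (10.8%) and 196 (3.92%). Without setting the median gene to 0, the counts were 236 higher and 411 lower in WT and 352 higher and 557 lower in Pac1-/-, so the balance of higher and lower genes depends on that step. A gene high only in double-positive cells can reach 200 UMIs through them alone.

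The 2 libraries, which share no cells, gave similar ratios. Across the 4627 genes compared in both, Pearson's r was 0.858 and Spearman's rho 0.812, as a description across genes, which are not independent. Of these genes 320 (6.92%) were past 1.5-fold higher and 55 (1.19%) past 1.5-fold lower in both libraries, and 0 were past 1.5-fold in opposite directions. The higher genes were 88.6% of those higher in WT and 61.7% of those higher in Pac1-/-, whereas the lower genes were 38.5% and 35.0%. For 269 of the 320 the ratio was larger in Pac1-/-.

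**Figure D2:**
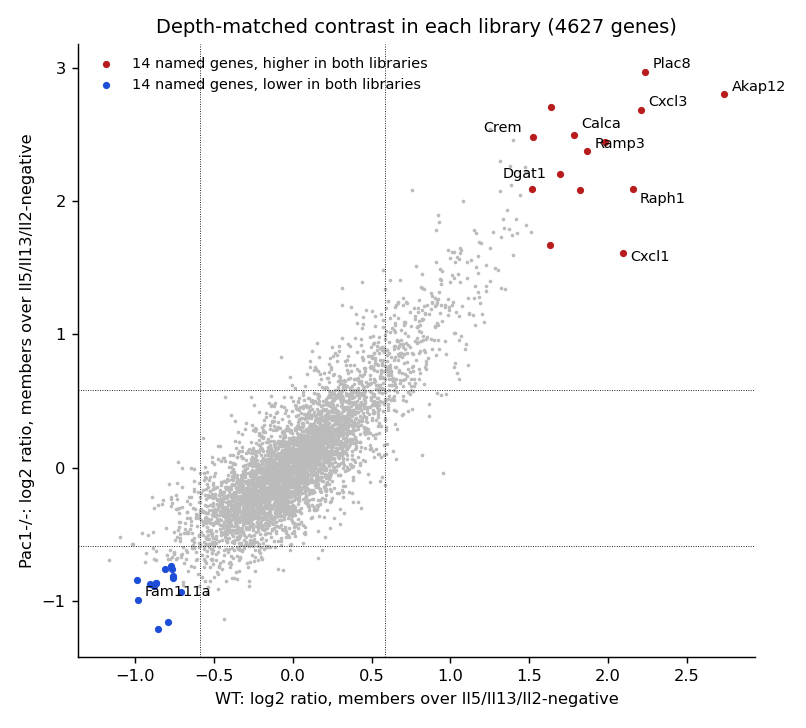
Log2 ratio of double-positive over depth-matched cytokine-negative cells, relative to the median gene, in WT (x axis) and Pac1-/- (y axis) for 4627 genes (grey), with the 14 highest and 14 lowest named genes in colour. Higher genes reach further from 0 than lower genes, and most of them have the larger ratio in Pac1-/-.

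Calca, Crem and Ramp3, of CGRP and cAMP signalling, were past 1.5-fold higher in double-positive cells in both libraries, and the CGRP receptor genes Calcrl and Ramp1 were not. Calca was at 815 CPM (790 to 840) in double-positive and 262 CPM (247 to 277) in negative WT cells, and at 785 CPM (760 to 810) and 158 CPM (147 to 170) in Pac1-/-. The log2 ratios were 1.79 (1.69 to 1.88) and 2.50 (2.38 to 2.61). A Calca UMI was found in 65.1% of double-positive and 39.7% of negative cells of the WT pairs, and in 65.7% and 35.2% of the Pac1-/- pairs. In both libraries the gene was thus found in most double-positive cells and in fewer than 40% of negative ones. Crem, whose product is a transcriptional modulator induced by cAMP, was at 704 CPM against 271 in WT and at 506 CPM against 103 in Pac1-/-, with log2 ratios of 1.53 and 2.48. Ramp3 (chr11:6658521-6677475, plus strand), a receptor partner that turns Calcrl into an adrenomedullin receptor, had ratios of 1.87 and 2.37. The CGRP receptor itself differed little, with Calcrl at -0.21 and -0.07 and Ramp1 at -0.12 and -0.08. Of 10 receptors for neuropeptides and lipid mediators compared, Ramp3 was the only one past 1.5-fold higher in either library. This stands beside 7.83% of all genes in WT and 10.8% in Pac1-/-, from which 1 of 10 does not stand apart. Vipr2, a receptor for vasoactive intestinal peptide, had ratios of -0.32 in WT and -0.61 in Pac1-/-, the latter -0.27 without pairing by depth.

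The genes the study tied to the CGRP response were taken from its bulk RNA and chromatin accessibility data on CGRP-treated WT and Pac1-/- ILC2s, and their use here followed earlier results of these libraries, so their count is not independent evidence. They were past 1.5-fold higher for 8 of 8 compared in WT (median 1.41) and for 6 of 6 in Pac1-/- (median 1.98), beside 7.83% and 10.8% of all genes. Gpr65, a proton-sensing receptor that signals through cAMP, was the lowest of them in WT at 0.88, and Tnfrsf9, a costimulatory receptor, was the highest at 2.41. Plac8 had ratios of 2.23 and 2.97. Its UMIs came from few cells, 9.0% of double-positive and 3.5% of negative cells of the WT pairs, and 10.5% and 3.6% of the Pac1-/- pairs. Of the wider cAMP pathway list, 7 of 13 genes in WT and 7 of 11 in Pac1-/- were past 1.5-fold higher and none lower, beside the same shares of all genes. Rgs2, a brake on G protein signalling, had ratios of 0.91 and 1.22, and the phosphodiesterase Pde4d 0.92 in WT. Pde7a and Pde3b, other phosphodiesterases, had the lowest ratios of the list, and neither was past 1.5-fold.

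Chemokines past 1.5-fold higher were 5 of 6 compared in both libraries, beside 7.83% of all genes in WT and 10.8% in Pac1-/-, with medians of 1.35 in WT and 1.67 in Pac1-/-. Cxcl2, a neutrophil attractant, was at 2621 CPM (2577 to 2666) against 1117 (1087 to 1147) in WT and at 3229 CPM (3178 to 3281) against 764 (739 to 790) in Pac1-/-. Its relatives Cxcl3 and Cxcl1 had ratios of 2.21 and 2.10 in WT and of 2.69 and 1.61 in Pac1-/-. Ccl1, the ligand of Ccr8, was at 1129 CPM against 500 in WT and at 739 CPM against 253 in Pac1-/-. Ccl5, at 0.61 and 0.59, was within 1.5-fold under 2 alternatives in WT and 5 in Pac1-/-, which leaves 4 of 6. The interferon-induced Cxcl10 was the exception, at 0.15 and 0.26 with intervals of -0.11 to 0.42 and -0.02 to 0.54.

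Among other cytokines and growth factors, 4 of 8 in WT and 6 of 9 in Pac1-/- were past 1.5-fold higher, beside 7.83% and 10.8% of all genes. Areg, which encodes the epithelial growth factor amphiregulin, was at 1120 CPM (1091 to 1150) against 521 (501 to 542) in WT and at 1272 CPM (1240 to 1305) against 460 (440 to 480) in Pac1-/-. Csf2, which encodes GM-CSF, was at 1427 CPM against 824 in WT and at 2155 CPM against 1051 in Pac1-/-. Il4, the third type 2 cytokine of the locus, was at 28.5 CPM (24.0 to 33.5) against 15.5 (12.2 to 19.5) in WT and at 27.3 CPM (22.8 to 32.4) against 18.3 (14.6 to 22.7) in Pac1-/-. Csf1, the growth factor of macrophages, went the other way, with ratios of -0.87 (-1.20 to -0.54) and -0.86 (-1.23 to -0.50), and of -0.48 and -0.53, within 1.5-fold, without pairing by depth. The Tnf ratio was -0.45 in WT. In Pac1-/- it was -0.76, and 0.15 without pairing by depth. Il17a was high in Pac1-/- double-positive cells, at 41.7 CPM against 7.07 in negative ones, through very few cells: 10 of 585 had a UMI and 5 of them held 194 of 202 UMIs. In WT 14 cells held 39 Il17a UMIs.

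Neighbouring genes of the Il5 and Il13 locus on chromosome 11 were compared as well, of which 2 of 8 were past 1.5-fold higher in each library, beside 7.83% and 10.8% of all genes. These were Il4 and Hspa4, which encodes a chaperone and had ratios of 0.83 and 0.99. Rad50, a DNA repair gene between Il5 and Il13 whose introns hold a control region of the locus, was at 0.45 (0.31 to 0.60) in WT and 0.46 (0.31 to 0.62) in Pac1-/-. The other neighbours lay closer to 0 than 1.5-fold.

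Of 12 receptors for alarmins and growth cytokines, 5 in WT and 4 in Pac1-/- were past 1.5-fold higher, beside 7.83% and 10.8% of all genes. Il2rb, the signalling chain of the IL-2 and IL-15 receptors, was at 292 CPM against 117 in WT and 227 CPM against 53.9 in Pac1-/-, with ratios of 1.47 (1.33 to 1.62) and 2.26 (2.06 to 2.47). Il2ra and Il4ra had ratios of 0.81 and 0.83 in WT and of 1.07 and 1.34 in Pac1-/-. Il1rl1, which encodes the IL-33 receptor ST2 used in the sort, was at 0.64 in WT and 0.58 in Pac1-/-, on either side of the limit. Il7r, Il9r and Il17rb, receptors for IL-7, IL-9 and IL-25, had ratios below 0 in both libraries, the lowest being Il9r in WT at -0.51. Of costimulatory and TNF family genes 5 of 11 were past 1.5-fold higher in each library, beside 7.83% and 10.8% of all genes, among them Pdcd1, which encodes the inhibitory receptor PD-1, at 1.44 and 2.05, and Icos at 1.30 and 1.48.

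**Figure D3:**
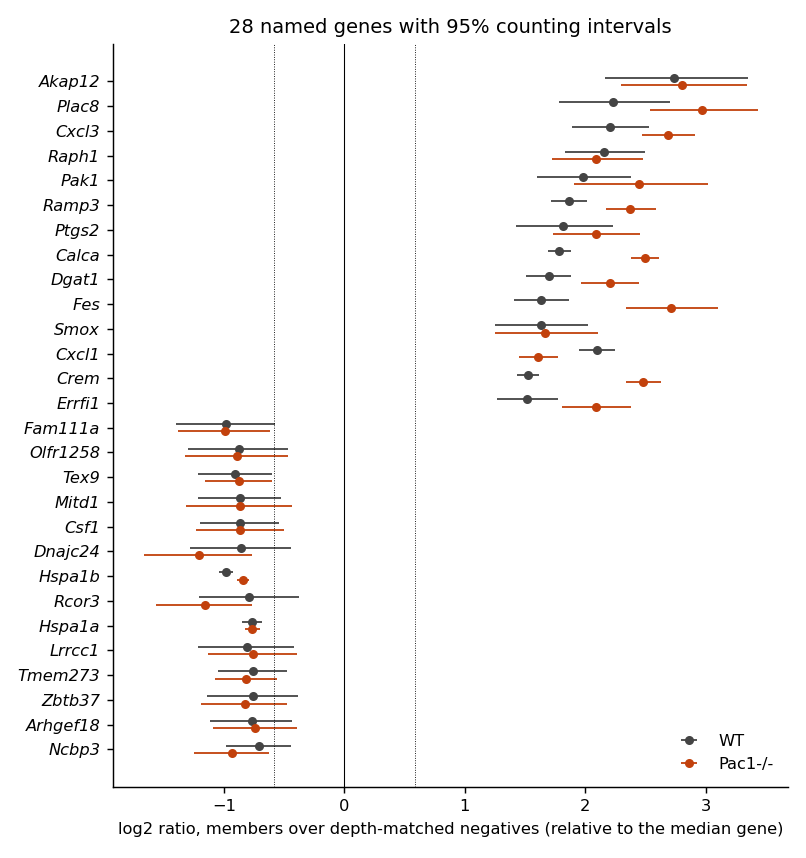
Log2 ratio of double-positive over depth-matched cytokine-negative cells (x axis, relative to the median gene) for the 28 genes with the largest ratios of like direction in both libraries, with 95% counting intervals as bars. Akap12 and Plac8 lead the higher genes, and the intervals of the lower genes are wide beside their distance from 0, Hspa1a and Hspa1b excepted.

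Gata3, the master regulator of ILC2s, was at 1473 CPM (1440 to 1507) against 915 (888 to 942) in WT and at 1375 CPM (1341 to 1408) against 848 (821 to 875) in Pac1-/-. Rora, needed for ILC2 development, had ratios of 0.94 and 1.38. Past 1.5-fold higher were 6 of 13 lineage factors in WT (median 0.41) and 8 of 13 in Pac1-/- (median 0.66), beside 7.83% and 10.8% of all genes, and none was past it lower. Bcl11b, another factor of the ILC2 programme, had ratios of -0.38 and -0.24.

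Factors induced by stimulation were not alike. Nr4a3, an immediate early nuclear receptor, was at 977 CPM (950 to 1005) against 436 (418 to 455) in WT and at 657 CPM (635 to 681) against 177 (165 to 190) in Pac1-/-. Its relative Nr4a1 had ratios of 0.70 and 1.27. Egr1, an immediate early zinc finger factor, was lower, at -0.88 (-1.01 to -0.75) and -0.68 (-0.85 to -0.52), and the Pac1-/- value was within 1.5-fold without pairing by depth (-0.51) and after thinning (-0.39). Of NF-kB genes 5 of 14 in WT and 6 of 14 in Pac1-/- were past 1.5-fold higher, beside 7.83% and 10.8% of all genes, led by the subunits Rel (1.27 and 1.77) and Nfkb1 (0.90 and 1.21). AP-1 genes differed between libraries in their counts, with 0 of 10 past 1.5-fold higher in WT and 5 of 10 in Pac1-/-, beside 7.83% and 10.8% of all genes, a difference that was not tested. Jun was at -0.59 and -0.50, and at -0.28 and -0.09 without pairing by depth. Of calcium and NFAT genes 1 of 11 in WT and 2 of 11 in Pac1-/- were past 1.5-fold higher, beside 7.83% and 10.8% of all genes, from which so few genes do not stand apart. Orai1, the pore of the store-operated calcium channel, was at 0.99 and 1.57 and Nfatc1 at 0.52 and 1.14.

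Dgat1 and Dgat2, which make triglycerides, had ratios of 1.70 and 1.39 in WT and of 2.20 and 1.75 in Pac1-/-. Hilpda, which protects lipid droplets from lipolysis, was at 1254 CPM (1224 to 1286) against 499 (479 to 519) in WT and at 1531 CPM (1496 to 1567) against 374 (357 to 393) in Pac1-/-. These 3 were the lipid genes past 1.5-fold, of 5 compared in WT (median 1.39) and 6 in Pac1-/- (median 1.14), beside 7.83% and 10.8% of all genes. The list's median ranged from 0.34 to 1.59 in WT and from 0.33 to 2.10 in Pac1-/- over the alternatives. Ldha and Hif1a led the glycolysis genes, with ratios of 1.22 and 0.97 in WT and of 1.10 and 1.22 in Pac1-/-, and 4 of 14 were past 1.5-fold higher in each library, beside the same shares. Odc1, the first enzyme of polyamine synthesis, had ratios of 1.33 and 1.87, and Smox, which oxidises the polyamine spermine, 1.63 and 1.67.

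Several of the genes with the largest ratios were carried by few cells. Akap12, a scaffold of protein kinase A, had ratios of 2.74 (2.17 to 3.36) and 2.80 (2.30 to 3.34), but 5 cells held 35.0% of its UMIs in WT double-positive cells and 61.8% in Pac1-/-. Ptgs2, which makes prostaglandins, had ratios of 1.82 and 2.09, with 18.2% and 43.8% of its UMIs in 5 cells. Raph1, a regulator of actin-based migration, had ratios of 2.16 and 2.09, Pak1, a kinase of the cytoskeleton, 1.98 and 2.44, and Fes, a tyrosine kinase, 1.64 and 2.71.

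Heat shock genes had the lowest median of the 25 lists in both libraries. In WT 4 of 8 were past 1.5-fold lower and in Pac1-/- 3 of 8, beside 3.29% and 3.92% of all genes, with medians of -0.43 and -0.28. Without pairing by depth 1 of the 4 WT calls, Hspa1b at -0.78, and 0 of the 3 Pac1-/- calls remained. The Pac1-/- median was 0.05 with genes down to 50 UMIs and below 0 under the 10 other alternatives. Hspa1b, an inducible HSP70, was at 695 CPM (672 to 718) in double-positive and 1525 CPM (1490 to 1560) in negative WT cells, and at 1008 CPM (979 to 1037) and 2048 CPM (2007 to 2090) in Pac1-/-. Hspa1a had ratios of -0.77 and -0.76. Txnip, a brake on glucose uptake that is high in resting cells, was at -0.69 and -0.88, and the survival gene Bcl2 at -0.70 and -0.60. Without pairing by depth neither passed 1.5-fold in either library, at -0.53 and -0.57 for Txnip and -0.44 and -0.43 for Bcl2. The Bcl2 relatives Bcl2a1b and Bcl2a1d were at 1.17 and 1.06 in WT and 1.46 and 1.61 in Pac1-/-, and are near-identical copies whose reads may be divided between them. Fam111a, at -0.98 and -0.99, led the lower genes when ranked by the smaller absolute ratio of both libraries. It had 76 UMIs against 157 in WT and 86 against 186 in Pac1-/-. Lower calls were the less stable ones without pairing by depth. Of the 161 in WT 32 were kept, and of the 196 in Pac1-/- 28 were. Of the higher calls 330 of 383 and 483 of 539 were kept. Without setting the median gene to 0 it was the reverse, with 161 and 196 lower calls kept but 236 and 352 higher calls.

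**Figure D4:**
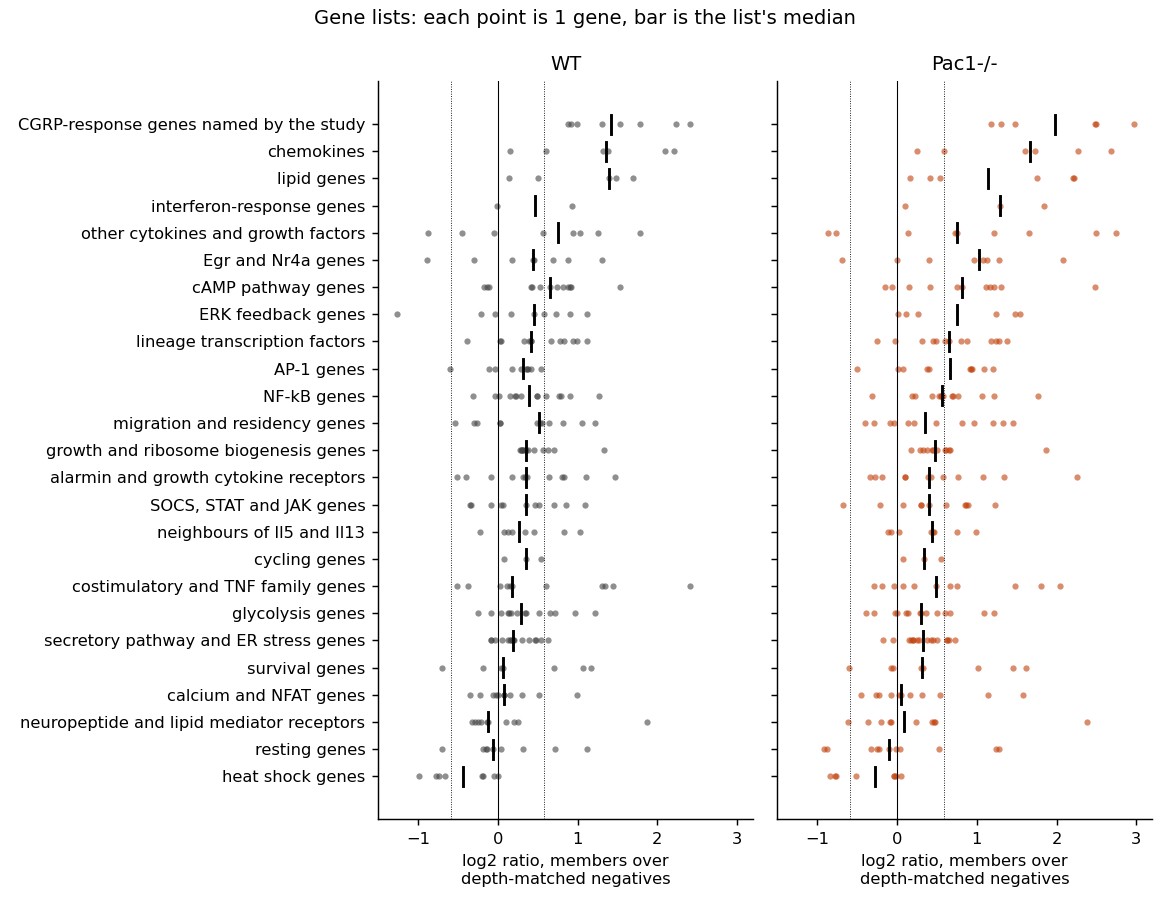
Log2 ratio of double-positive over depth-matched cytokine-negative cells for each compared gene (points, x axis) of 25 gene lists (y axis), in WT and Pac1-/-, with the list's median as a black bar. The CGRP-response and chemokine lists lie to the right in both libraries and the heat shock list to the left.

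Cells with only 1 of the cytokines were set beside the double-positive cells to show where these differ. Il5-only cells, 2113 in WT and 1269 in Pac1-/-, were close to them. Of 6355 genes 15 (0.236%) were past 1.5-fold higher and 15 (0.236%) lower in double-positive cells of WT, and of 5477 genes 91 (1.66%) were higher and 26 (0.475%) lower in Pac1-/-. Il4 was higher in double-positive than in Il5-only cells, with ratios of 0.97 (0.65 to 1.30) in WT and 0.69 (0.31 to 1.09) in Pac1-/-. Cxcl3 had ratios of 0.84 and 0.70 and Dusp4, a MAP kinase phosphatase, 0.76 and 1.31. Calca differed by 0.29 in WT and 0.65 in Pac1-/-, and Plac8 by 0.47 and 1.97.

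Il13-only cells, 470 in WT and 375 in Pac1-/-, stood further away. Of 2874 genes 108 (3.76%) were past 1.5-fold higher and 32 (1.11%) lower in double-positive WT cells, and of 3131 genes 190 (6.07%) and 66 (2.11%) in Pac1-/-. Their median depths were less well matched, as given above. The lowest ratio of any gene was -1.19 in WT and -9.45 in Pac1-/-. Against Il5-only cells it was -5.33 in WT and -1.06 in Pac1-/-. Markers of other cell types are not reported here for cells with only 1 of the cytokines. Ramp3 had ratios of 1.21 and 1.56 and Calca of 1.11 and 1.52. Hspa1b was lower, at -1.19 and -1.14. Over all cells of each class, not paired by depth, Il4 stood highest in Il13-only cells, with 56.1 CPM (46.7 to 66.8) in WT and 55.9 CPM (46.9 to 66.2) in Pac1-/-, against 25.3 (22.5 to 28.5) and 23.6 (20.04 to 27.6) in all double-positive cells and 13.8 and 14.04 in Il5-only cells. In the Pac1-/- pairs the Il4 ratio of double-positive over Il13-only cells was -0.56 (-0.95 to -0.17), which is within 1.5-fold, and in the WT pairs Il4 had under 200 UMIs.

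Double-positive cells also varied among themselves with the amount of cytokine. They were divided into 3 groups of near-equal size by Il5 and Il13 UMIs per 10000 UMIs of the cell, from lowest to highest. The median depth ran from 8765 over 6849 to 5118 UMIs in WT and from 10499 over 9056 to 6671 in Pac1-/-, so cells with a high cytokine share were shallower. Calca stood at 456, 686 and 1090 CPM in WT and at 352, 720 and 1218 CPM in Pac1-/-. Icos stood at 199, 263 and 380 CPM in WT and at 221, 351 and 556 CPM in Pac1-/-, and Gata3 at 1150, 1482 and 1744 CPM and at 1131, 1364 and 1648 CPM. Hspa1b went the other way, at 965, 710 and 457 CPM in WT and at 1478, 1056 and 606 CPM in Pac1-/-. The 27 genes examined were a chosen set, and the share over all genes is not given. Some had very few UMIs, such as Dusp2 and Il9 with 1 and 3 in Pac1-/- double-positive cells. The order of the 3 groups was the same in both libraries for 21 of the 27. It differed for 6, among them Il4, at 24.6, 29.7 and 20.4 CPM in WT and 17.9, 25.9 and 29.4 CPM in Pac1-/-, and Egr1, at 195, 159 and 115 CPM and at 107, 157 and 77.4 CPM. Within a library Spearman's rho between Il5 and Il13 per 10000 UMIs of single double-positive cells was 0.28 in WT and 0.36 in Pac1-/-. This describes cells that share a library and differ in depth. Every cell was chosen to hold at least 1 UMI of each gene, and both counts were divided by the same UMI total. Cells with few UMIs therefore tend to be high for both, so a positive rho can arise from the rule alone. No rho for unrelated counts was computed, so no link between the cytokines is read from these values.

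The genotypes were compared within double-positive cells by pairing 577 Pac1-/- with 577 WT cells of like depth (medians 8089 and 8078 UMIs). Of 5504 genes 317 (5.76%) were past 1.5-fold higher and 424 (7.7%) lower in Pac1-/-. Without setting the median gene to 0 the counts were 471 and 336. In 2270 pairs of cytokine-negative cells, less well matched at medians of 4124.5 UMIs in Pac1-/- and 3746.5 in WT, 377 of 7240 genes (5.21%) were higher and 731 (10.1%) lower, or 795 and 458 without that step. Several of the largest differences were in both kinds of cell. Mmp16, a matrix protease, had a log2 ratio of 5.52 in double-positive and 5.74 in negative cells, and the lectin gene Lgals3 of 3.15 and 2.83. Zfp990 had 0 UMIs in WT double-positive cells and 345 in Pac1-/-, at least 114-fold higher against a limit of 3 counts over the pool. Lower in both kinds of cell was Hk2, a hexokinase (-1.92 and -1.60). Il17a had a ratio of 3.31 in double-positive cells through the few cells named above. Ifi27l2a, an interferon-induced gene, had 5.05 (3.99 to 6.38), on 249 UMIs in 25 Pac1-/- cells, and too few UMIs for a call in negative cells. The others of the 10 highest were Gm47015 (4.99), Gm8797 (3.22), Rps27rt (2.76), Dhrs3 (2.24) and Gm12840 (2.20), each also past 1.5-fold higher in negative cells. Of the 10 lowest, the noncoding Gm43305 (-4.52), Gm42031 (-3.60) and Gm10076 (-3.13), the histone genes Hist1h2ap (-2.96) and Hist2h2aa1 (-2.82), Nbea (-2.88), mt-Atp8 (-2.47) and Trdv4 (-1.84) were also past 1.5-fold lower in negative cells. Hist2h2aa1, Nbea and mt-Atp8 overlap other genes on the same strand.

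Of the genes past 1.5-fold higher in double-positive cells of both libraries and compared here, 306 of 319 had a lower ratio of Pac1-/- over WT in negative than in double-positive cells, with medians of -0.48 and -0.19. This restates that the ratios above were larger in Pac1-/-, since the same cells enter. Calca was at 728 CPM in Pac1-/- and 674 in WT double-positive cells. Relative to the median gene this was no difference beyond counting error (log2 ratio 0.03, -0.03 to 0.09). The median gene lay at 0.08, and without setting it to 0 Calca was higher in Pac1-/- beyond counting error. In negative cells Calca was at 156 against 259 CPM (-0.87, -0.96 to -0.77). Crem was at -0.56 (-0.63 to -0.49) in double-positive cells, within 1.5-fold, and past it at -1.47 (-1.57 to -1.36) in negative cells. Nr4a3 had ratios of -0.67 and -1.498, Il2rb of -0.36 and -1.39, and Gpr65 of -1.06 and -1.54. The Nr4a3 value in double-positive cells was within 1.5-fold under 3 alternatives, at -0.43 to -0.57. Csf2 stood at 2079 CPM in Pac1-/- and 1316 in WT double-positive cells (0.58, 0.54 to 0.62). This is within 1.5-fold, but past it without setting the median gene to 0. In negative cells Csf2 was at 0.00 (-0.04 to 0.05). Klf2, a factor of quiescence and recirculation, was higher in both, at 1.48 and 1.10. Over the CGRP-response genes compared in both kinds of cell, 7 of 7 had the lower ratio in negative cells, with medians of 0.03 and -0.65. Over all 5479 genes compared in both, 59.5% had the lower ratio in negative cells. Most of the 7 were also among the genes higher in double-positive cells of both libraries, for which it was 306 of 319. From that share 7 of 7 does not stand apart. Over the 8 CGRP-response genes compared in double-positive cells the median was -0.18, with 4 of 8 above 0. Over the alternatives this median ranged from -0.30 to 0.008, and kept its sign in 9 of 11. Both comparisons use the same 2 libraries, and whether the genotype difference depends on cell class was not tested.

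**Figure D5:**
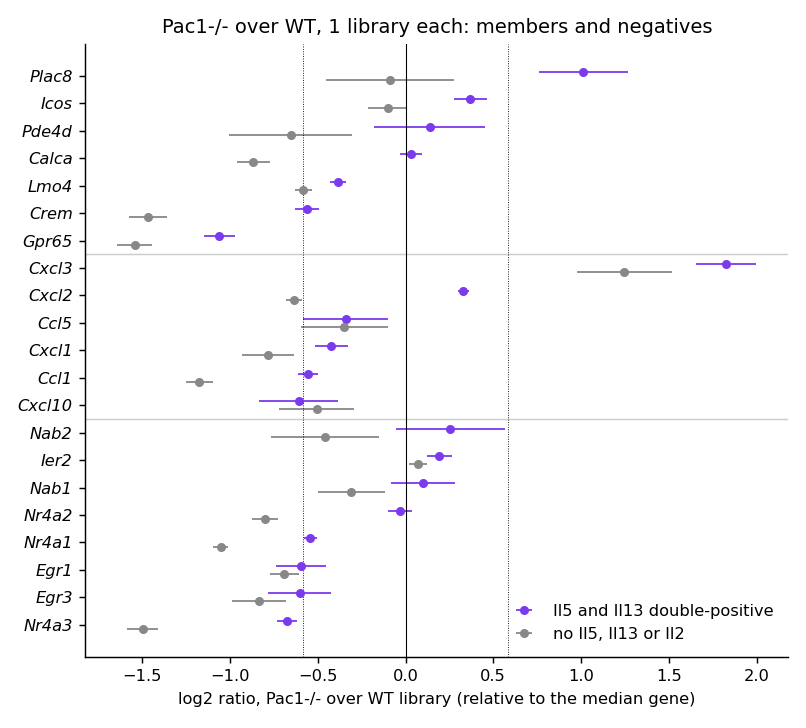
Log2 ratio of Pac1-/- over WT (x axis, relative to the median gene, 1 library per genotype) for 21 genes in double-positive and in cytokine-negative cells, with 95% counting intervals as bars. The genes are those of the CGRP-response, chemokine, and Egr and Nr4a lists compared in both kinds of cell. For 20 of the 21 genes the ratio is lower in negative cells, Cxcl10 being the exception, beside 59.5% of all 5479 genes. Many of the 21 were higher in double-positive cells of both libraries. Of all such genes compared, 306 of 319 had the lower ratio in negative cells.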

How the data were processed

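Sorted lung ILC2s of 1 WT and 1 Pac1-/- library were sequenced with the 10x Chromium 3′ assay. The authors aligned reads to mm10 and deposited counts of UMIs per gene and barcode. Their methods name Cell Ranger 6.1.1 and the file header 4.0.0, and the annotation release is not given in the sources used here. The deposited matrices held 10866 WT barcodes (56182065 UMIs) and 9495 Pac1-/- barcodes (60283285 UMIs), of which 8394 and 7087 passed the filters of at least 500 genes and at most 10% mitochondrial UMIs. The libraries share 29 barcode sequences, 3 of them on double-positive cells of each library. No doublets were removed. Simulated doublets, called at 0.8% per 1000 barcodes, took out 730 WT (8.70%) and 538 Pac1-/- barcodes (7.59%) as an alternative, and 14.8% and 15.0% of the double-positive cells.

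UMIs were pooled per class and library with Python 3.11.15, numpy 2.4.6 and scipy 1.17.1, after pairing barcodes within 10% of each other's UMI count. Figures were drawn with matplotlib 3.10.9. Intervals are at 95%, from the Poisson distribution for CPM, the binomial of the 2 pools' UMIs for ratios and Clopper-Pearson for shares. Genes with at least 200 UMIs in the 2 pools were compared, and a change counted past 1.5-fold relative to the median ratio. With 1 library per group no test across samples exists. The code was tested on simulated data. Named genes were the 14 highest and 14 lowest by the smaller absolute ratio of both libraries, the 10 highest and 10 lowest between genotypes, and the extremes of each of 25 lists; other list genes are named for their role, with their values known. The cells, gene lists and rules were chosen with earlier results of these data known. Of the list symbols, 3 were left out, 2 of them because they stand on 2 lines of the matrix. No deposited column was left unused. Of the genes named between genotypes, 1 is not reported here.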

Additional observations from a re-analysis of the deposited data

Results flagged for a closer look

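For Cxcl2, Hilpda and Isg15 the ratio of Pac1-/- over WT was past 1.25-fold in opposite directions in double-positive and in cytokine-negative cells. The share of all compared genes with such a pattern is not given here. Cxcl2 had a log2 ratio of 0.33 (0.30 to 0.36) in double-positive and -0.63 (-0.68 to -0.59) in negative cells. Hilpda had 0.35 (0.30 to 0.39) and -0.47 (-0.54 to -0.41), and Isg15, an interferon-induced gene, 0.48 (0.17 to 0.79) and -0.44 (-0.79 to -0.09). These ratios are relative to the median gene, which lay at 0.14 in negative cells. Without setting it to 0, Isg15 was within 1.25-fold in negative cells, with an interval that includes 0. With 1 library per genotype the difference between the 2 kinds of cell was not tested.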

How the results depend on the processing

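The share of double-positive cells moved with their definition, and the Pac1-/- share was below the WT share under each alternative run. WT and Pac1-/- shares were 13.7% and 7.59% with predicted doublets removed, 11.3% and 6.67% with barcodes of over 2 times the median UMIs left out, 6.59% and 3.72% after thinning to 1500 UMIs, 7.77% and 4.56% with at least 2 UMIs of each cytokine, 21.9% and 14.1% with Il2 not considered, and 16.3% and 8.96% with at least 1000 genes and at most 5% mitochondrial UMIs. Leaving out the 29 shared barcodes, an alternative chosen after seeing the data, gave 14.7% and 8.24%. Leaving out barcodes with 3 markers of another type gave 12.8% and 7.30%.

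Counts past 1.5-fold moved with the minimum, the redrawn classes after thinning and the scaling. At 50 UMIs they were 777 higher and 646 lower in WT double-positive against negative cells, 1031 and 674 in Pac1-/-, and 723 and 855 between genotypes. At 500 UMIs, which leaves fewer genes, they were 194 and 61, 286 and 78, and 165 and 239. Ratios as counted gave 236 and 411 in WT and 352 and 557 in Pac1-/-. Classes drawn again after thinning, with all cells of a class and no pairs, gave 428 higher and 355 lower genes in WT and 680 and 734 in Pac1-/-, where lower genes then outnumbered higher ones, and 56 higher and 94 lower between genotypes, and leaving out barcodes over 2 times the median UMIs gave 139 and 218 between genotypes. Tnf turned to 0.15 in Pac1-/- without pairing by depth, and the median of the interferon-response genes in Pac1-/- to -0.11 without the deepest barcodes and to -0.0028 at 500 UMIs. The heat shock median in Pac1-/- turned to 0.05 at a minimum of 50 UMIs. The causes of these turns were not tested. No paired analysis was possible because each genotype was 1 library. Genes under 200 UMIs have wide counting intervals at this depth.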
